A study of Rattus norvegicus with 4 samples.

Results

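Syn2, Stxbp6, Grina, Olfm1, Negr1 and Cpne4 encode proteins of the synaptic vesicle, of the neuronal membrane and of contacts between neurons. They were examined in RNA-seq of the adult rat hippocampus 40 days after chronic fluoxetine exposure. They account for 6 of the 482 genes and 13 of the 830 transcripts in the deposited table, and every row of the table that carries 1 of the 6 symbols was taken. The genes had been chosen by their difference between fluoxetine and vehicle in these same samples, and the table itself lists only transcripts that the authors had selected on this contrast. The differences between the groups are therefore given as a description, without a test for the 6 genes.

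A presynaptic terminal stores neurotransmitter in vesicles, tethers them to the cytoskeleton in a reserve pool and releases them when SNARE proteins of the vesicle and the plasma membrane assemble into a complex. Syn2 encodes synapsin II, a phosphoprotein of the vesicle surface that helps to hold vesicles in the reserve pool, and Stxbp6 encodes amisyn, which binds SNARE proteins and limits their assembly. Grina encodes a membrane protein of the TMBIM family, whose members act in calcium balance and cell survival, and Cpne4 encodes a copine, a protein that binds membrane phospholipids through C2 domains when calcium rises. Olfm1 encodes olfactomedin 1 (noelin), a secreted glycoprotein that associates with AMPA receptor complexes, and Negr1 encodes neuronal growth regulator 1, a membrane-anchored adhesion protein of the IgLON family that influences the outgrowth of neurites. The hippocampus, with its dentate gyrus and its CA fields, receives dense serotonergic input, and fluoxetine blocks the reuptake of serotonin.

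All 4 samples came from male Wistar rats and each held hippocampal punches of 2 rats. The 2 fluoxetine samples came from rats given fluoxetine at 12 mg/kg/day by oral gavage from postnatal day (PND) 67 to 88. The 2 vehicle samples came from rats given 1% methylcellulose in the same volume of 5 ml/kg over the same days. All rats were killed on PND 128. Nothing in the labels ties sample 1 or 2 of one group to the same number in the other. Summed over the listed transcripts, a sample had between 138314 and 162734 reads, 1.03 to 1.17% of library totals of 12512599 to 14080349 reads. Transcripts outside the table were not analysed here.

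Primer pairs for qRT-PCR are shown for Syn2, Grina, Olfm1 and Cpne4, since they are the sequences designed on these messages, and no qRT-PCR value was used here. Only the Syn2 pair was designed on a RefSeq transcript that is itself among the listed transcripts. The pairs are given from 5′ to 3′.
Syn2 forward primer: atgcggatggaacctacg
Syn2 reverse primer: ggatgagcacgaagtctgg
Grina forward primer: aggctcttctgcgtcttcc
Grina reverse primer: aactcttttcatgggacatgg
Olfm1 forward primer: agacctcaggctcaaggttc
Olfm1 reverse primer: caccatggacttgtactcacg
Cpne4 forward primer: tcatcctcaagatgcaatcc
Cpne4 reverse primer: ccaccgtaaacagctttgag

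The sequences before the annotated starts were read for the 6 genes because the 6 were lower together in fluoxetine-exposed rats. RefSeq promoters on the rat assembly GRCr8 matched 5 of the 6 genes by gene identifier, and no entry was used for Grina. Over the 250 bases before the start, the GC content was 66.8% for Syn2, 64.8% for Stxbp6, 63.6% for Negr1 and 62.4% for Olfm1. The Cpne4 sequence stood apart with 38.4%, below the median of 51.2% over 33469 rat promoters. A single entry was taken for each gene, and its start was not compared with the starts of the listed transcripts. The GC box core GGGCGG, on either strand, occurred 3 times for Syn2, 2 times for Olfm1, 1 time for Negr1 and not for Stxbp6 or Cpne4, while 30.5% of all promoters held it. The TATA motif TATAAA, on either strand, matched for Cpne4 alone among the 5, where it lies on the opposite strand and reads TTTATA in the printed sequence, and 12.9% of all promoters held it. The motif CCAAT, on either strand, occurred for Stxbp6 and Cpne4, against 34.0% of all promoters, and the cyclic AMP response element TGACGTCA occurred for none of the 5, against 1.59%. No match overlapped a match of another motif, and a match is a description of the letters only. The promoters of Syn2 and Olfm1, which held the most GC boxes, and of Cpne4, which held none, are printed from 5′ to 3′ on the strand of the gene, and capitals mark GGGCGG or its reverse complement. The Syn2 sequence lies at chr4:149858669-149858918 (plus strand), that of Olfm1 at chr3:31931086-31931335 (plus strand) and that of Cpne4 at chr8:114055902-114056151 (plus strand), all on GRCr8.
Syn2 promoter: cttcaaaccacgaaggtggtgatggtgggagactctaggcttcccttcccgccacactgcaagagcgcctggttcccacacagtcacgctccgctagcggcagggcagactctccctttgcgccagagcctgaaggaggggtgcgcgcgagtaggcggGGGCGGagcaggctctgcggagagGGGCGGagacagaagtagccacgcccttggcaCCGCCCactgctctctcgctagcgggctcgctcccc
Olfm1 promoter: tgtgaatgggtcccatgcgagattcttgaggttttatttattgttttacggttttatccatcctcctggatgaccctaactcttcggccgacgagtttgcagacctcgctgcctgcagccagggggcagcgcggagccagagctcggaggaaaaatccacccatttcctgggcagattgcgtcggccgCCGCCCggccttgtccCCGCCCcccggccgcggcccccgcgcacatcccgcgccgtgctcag
Cpne4 promoter: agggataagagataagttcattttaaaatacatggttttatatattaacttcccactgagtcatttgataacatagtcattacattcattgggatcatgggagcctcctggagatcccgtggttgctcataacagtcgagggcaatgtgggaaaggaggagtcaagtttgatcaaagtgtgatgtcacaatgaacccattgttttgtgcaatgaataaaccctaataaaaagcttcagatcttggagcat

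All 6 genes had lower reads in fluoxetine-exposed than in vehicle-exposed rats. For each gene the transcript with the most reads is described first, in reads normalized by the trimmed mean of M values (TMM) over the listed transcripts. At this scaling the fluoxetine means were 51.4 to 58.5% of the vehicle means. The transcripts behind the scaling were all selected for a difference, and each of the 6 decreases was smaller at the library totals. The median log2 fold change over the 6 genes was -0.72 at the library totals and -0.84 at TMM. In bulk tissue, fewer cells of a type and less RNA per cell cannot be told apart. Both fluoxetine samples lay below both vehicle samples in 13 of the 13 transcripts of the 6 genes, and in 41.1% of the 830 listed transcripts. By fold change, 13 of 13 were lower, and 48% of the 830. Since the 6 genes were chosen by this contrast, nothing is read from these shares.

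Among the genes of the vesicle and its release, Syn2 is listed on chromosome 4 of build rn4 (chr4:151255241-151405841, plus strand), and its most-read transcript is a RefSeq model of 11 exons and 1747 bases. In fluoxetine, Syn2 had 2079 normalized reads in sample 1 and 2864 in sample 2. In vehicle, it had 3773 in sample 1 and 5009 in sample 2, and later values follow this order of samples. The groups did not overlap, and in each group sample 2 was the higher. The Syn2 mean was 2472 ± 555 in fluoxetine and 4391 ± 874 in vehicle (SD, n = 2 samples per group), which is a log2 fold change of -0.83 with an SE of 0.48. Stxbp6 is listed on chromosome 6 (chr6:64250324-64490477, minus strand) and was read most in a model of 6 exons and 928 bases. Stxbp6 had 268 and 185 normalized reads under fluoxetine against 453 and 428 under vehicle. Its vehicle samples lay close together, and the lower fluoxetine sample was number 2. Its mean was 226 ± 58.4 against 441 ± 18.0 (SD, n = 2), which is a log2 fold change of -0.96 with an SE of 0.45, which was the largest difference among the 6 most-read transcripts.

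Grina is listed with a single transcript of 2 exons and 601 bases on chromosome 7 (chr7:114277756-114278584, plus strand). Grina had 919 and 1403 normalized reads under fluoxetine against 1591 and 2379 under vehicle. The order of the groups rested on a narrow gap, since the lower vehicle sample stood 1.13-fold above the higher fluoxetine sample. At the library totals the same samples gave 1578 for fluoxetine sample 2 and 1432 for vehicle sample 1, so that the groups overlapped. The Grina mean was 1161 ± 343 in fluoxetine and 1985 ± 557 in vehicle (SD, n = 2), and its log2 fold change was -0.77 (SE 0.50), the smallest of the 6. Without vehicle sample 2 its log2 fold change was -0.33, and without fluoxetine sample 2 it was -1.24.

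Cpne4, the copine, is listed on chromosome 8 (chr8:109763909-110111283, plus strand), with a most-read model of 15 exons and 1675 bases. Cpne4 had 302 and 231 normalized reads under fluoxetine against 502 and 447 under vehicle. The lower vehicle sample stood 1.48-fold above the higher fluoxetine sample. The Cpne4 mean was 267 ± 50.3 against 474 ± 38.6 (SD, n = 2), which is a log2 fold change of -0.83 with an SE of 0.44.

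Of the adhesion and secreted proteins, Olfm1 was read most. Olfm1 is listed with 1 transcript of 3 exons and 915 bases on chromosome 3 (chr3:7179560-7194335, plus strand). Olfm1 had 3380 and 4169 normalized reads under fluoxetine against 6093 and 7466 under vehicle. The groups were apart by 1.46-fold between the nearest samples, and sample 2 was again the higher in each group. The Olfm1 mean was 3775 ± 558 against 6780 ± 971 (SD, n = 2), and its log2 fold change was -0.84 (SE 0.46). Negr1 is listed on chromosome 2 (chr2:254666633-255426378, plus strand), and its most-read model has 7 exons and 1808 bases. Negr1 had 294 and 214 normalized reads under fluoxetine against 466 and 454 under vehicle. The vehicle samples of Negr1 differed little from each other, and the nearest samples of the groups were apart by 1.54-fold. Its mean was 254 ± 56.6 against 460 ± 8.36 (SD, n = 2), and its log2 fold change was -0.86 (SE 0.44).

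**Figure D1:**
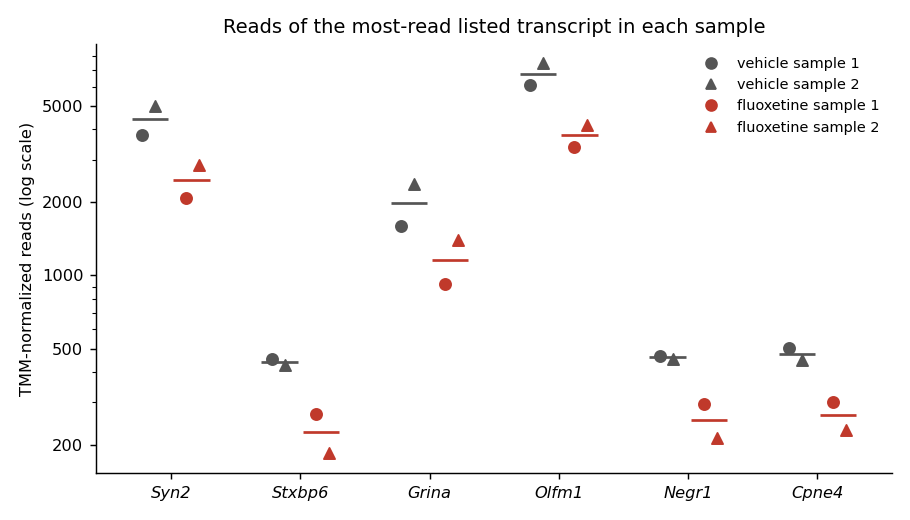
TMM-normalized reads of the most-read listed transcript of each gene in the 4 samples (log scale), with circles for sample 1, triangles for sample 2, grey for vehicle, red for fluoxetine and a line at each group mean. Both red points lie below both grey points for each gene at this scaling, with the narrowest gap for Grina (1.13-fold) and the widest for Stxbp6 (1.60-fold).

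The 6 differences were close in size. The log2 fold changes of the most-read transcripts had a median of -0.84, and their SE of 0.44 to 0.50 was wider than the distances between the genes. Over the 82 lower genes with at least 20 normalized reads on average the median was -1.21, over all 219 lower genes it was -2.20, and over all 830 transcripts it was 0.49. This last median became -0.55 when fluoxetine sample 1 was left out, -0.38 when number 2 of that group was, and 0.23 when vehicle sample 2 was. The 6 genes therefore stood at the small end of the listed decreases. By the deposited read density (normalized expression, NE), vehicle exceeded fluoxetine 1.56-fold for Grina, the member nearest to the limit of the table, where the smallest ratio among the lower transcripts was 1.55. For the 3-exon model of Cpne4, the member farthest from the limit, this ratio was 2.32, and the median over the 309 lower transcripts with reads in fluoxetine was 2.86. Transcripts beyond the limit were not analysed here.

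The 6 genes were split by how the samples of 1 group differed from each other. Syn2, Grina and Olfm1 were higher in sample 2 of both groups. The ratio of sample 2 to sample 1 was 1.38 in fluoxetine and 1.33 in vehicle for Syn2, 1.53 and 1.49 for Grina, and 1.23 and 1.23 for Olfm1. For these 3 genes the ratio was nearly the same within fluoxetine as within vehicle. Stxbp6, Negr1 and Cpne4 were lower in sample 2, at ratios of 0.69 in fluoxetine and 0.94 in vehicle for Stxbp6, 0.73 and 0.97 for Negr1, and 0.76 and 0.89 for Cpne4. Among the 228 genes with at least 20 normalized reads on average, 69 (30.3%) were higher in sample 2 of both groups. The direction within vehicle depended on the scaling for the second set, since at the library totals the vehicle ratios were 1.07 for Stxbp6, 1.10 for Negr1 and 1.01 for Cpne4. At the library totals the ratios within fluoxetine remained below 1 for these 3 genes, at 0.80, 0.85 and 0.89, and Syn2, Grina and Olfm1 were higher in sample 2 of both groups at either scaling.

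**Figure D2:**
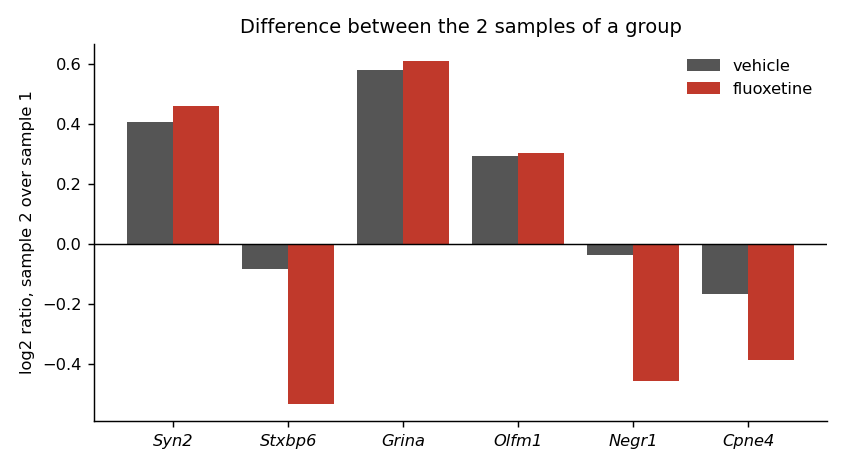
Log2 ratio of sample 2 over sample 1 within vehicle (grey bars) and within fluoxetine (red bars) for the most-read transcript of each gene, at TMM scaling. Syn2, Grina and Olfm1 have bars of nearly equal height above 0 in both groups, and Stxbp6, Negr1 and Cpne4 have bars below 0 that are longer in fluoxetine.

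Which sample was left out moved these same sets in different ways. Without fluoxetine sample 2 the log2 fold change was -1.21 for Syn2 and -1.13 for Olfm1, and without vehicle sample 2 it was -0.50 and -0.59. For Stxbp6 and Negr1 the largest values came without fluoxetine sample 1, at -1.25 and -1.10. Direction was the same for all 6 genes with each of the 4 samples left out, from which nothing is read, since the genes were chosen by this contrast.

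Beside these genes, marker genes of other cells also differed between the samples. Each listed marker had been selected for a difference on this contrast, in either direction, and 48% of the 830 transcripts were lower in fluoxetine. At TMM scaling both fluoxetine samples lay below both vehicle samples in 41.1% of the 830, and above both in 30.6%. Of 16 oligodendrocyte markers 13 are listed, all with higher mean reads in fluoxetine, but only 4 of them without overlap of the groups. Their summed level was 13420 and 25226 normalized reads under fluoxetine against 10333 and 16676 under vehicle. Of these 13, 11 were higher in sample 2 of both groups, as were the 3 listed of 6 CA1 pyramidal cell markers (Wfs1, Nov and Pou3f1). The summed level of these CA1 markers was 5427 and 11330 in fluoxetine and 5092 and 6619 in vehicle, and the groups overlapped for each of the 3. Of 7 dentate gyrus granule cell markers, 2 are listed, Stxbp6 itself and Pdyn, which encodes prodynorphin. Pdyn had 476 and 242 normalized reads under fluoxetine against 644 and 631 under vehicle. Its groups did not overlap, and like Stxbp6 it was lowest in fluoxetine sample 2. Of 8 genes taken as markers of thalamus, hypothalamus and brainstem, 6 are listed, of which Lhx2, Zic2 and Shox2 were lower in fluoxetine without overlap. Whether these genes mark such tissue in the punches was not tested. The other 3, Hcrt, Tac1 and Tph2, were higher, of which Tph2 without overlap, with 24.0 normalized reads or fewer in every sample. The summed level of the 6 was 296 and 394 against 685 and 524, most of it from Lhx2 and Zic2. Of 3 red blood cell markers, Hbb and Hba-a2 are listed, both lower without overlap, with a summed level of 618 and 470 against 698 and 1838. Interneurons (9 markers), astrocytes (8), microglia (8) and endothelial and mural cells (7) had 2 listed markers each. Summed, these had 3577 and 2143 normalized reads under fluoxetine against 1678 and 2310 under vehicle for interneurons, 3519 and 485 against 1467 and 737 for astrocytes, 15.9 and 22.2 against 11.8 and 8.47 for microglia, and 59.5 and 27.6 against 45.0 and 19.1 for endothelial and mural cells. The interneuron sum was nearly all Sst, whose groups overlapped, while Nos1 was lower without overlap, with 9.91 and 10.7 against 45.0 and 26.5. The astrocyte sum was nearly all Fabp7, whose groups overlapped, while Slc39a12 was higher without overlap, with 22.8 and 11.6 against 10.7 and 1.06. Among microglial markers Ly86 was higher without overlap, and Il1b was lower, with reads in vehicle sample 1 alone. Among endothelial and mural markers Cspg4 was lower without overlap, and Slc38a5 was higher with overlap of the groups. These sums therefore do not stand for the level of a cell type. None of 7 markers of CA2 and CA3 is listed, and every listed marker of CA1, of the dentate gyrus and of oligodendrocytes had reads in all 4 samples. The part of the cell make-up of the punches in the 6 differences was not tested.

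Per base of transcript, in NE, Olfm1 had the highest level of all 482 listed genes, averaged over the 4 samples. Its NE was 4.43 and 6.16 in vehicle and 2.65 and 3.79 in fluoxetine. Grina followed with 2.38 ± 0.86 in vehicle and 1.52 ± 0.60 in fluoxetine (SD, n = 2) and Syn2 with 1.80 ± 0.51 and 1.11 ± 0.36, and in both groups the NE of Grina and Syn2 overlapped. The other genes were read at a lower density. Stxbp6 stood at 0.337 ± 0.0160 in vehicle and 0.186 ± 0.0288 in fluoxetine, Cpne4 at 0.200 ± 0.0014 and 0.122 ± 0.0102, and Negr1 at 0.181 ± 0.0127 and 0.108 ± 0.0127. The order of the 6 genes was the same in both groups, although Cpne4 and Negr1 overlapped in fluoxetine. The 3 genes of high density were the ones that were higher in sample 2 of both groups.

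Syn2, Stxbp6, Negr1 and Cpne4 have 7 further listed transcripts, most of them models that were placed on the rat genome from other species, as were the most-read models of Grina (human), Olfm1 (cow) and Cpne4 (chimpanzee). Reads in shared exons count for each of them, so they are not separate measurements. Syn2 has 2 models of 13 exons (2641 and 1337 bases) and a model of 5 exons and 546 bases within the gene. Their log2 fold changes were -0.82, -0.87 and -1.03. The 5-exon Syn2 model had 428 and 595 normalized reads in fluoxetine and 1053 and 1039 in vehicle. Relative to the 11-exon model it took 0.206 and 0.208 of the reads in fluoxetine and 0.279 and 0.207 in vehicle, so that vehicle sample 1 stood apart from the other 3 samples. The 13-exon model of 1337 bases took 0.692 and 0.697 in fluoxetine and 0.729 and 0.705 in vehicle, without overlap, and the ratios of the 2641-base model overlapped between the groups.

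Cpne4 showed the widest difference among its own transcripts. Its 3-exon model of 523 bases begins upstream of the 15-exon model (chr8:109666481-109950035 on rn4). The 3-exon model had 48.6 and 34.7 normalized reads in fluoxetine and 116 and 93.2 in vehicle, a log2 fold change of -1.33 (SE 0.48). These values rested on 39 to 108 reads per sample, with counting errors of 9.62 to 16.0% of each value. Its reads relative to the 15-exon model were 0.161 and 0.150 in fluoxetine and 0.231 and 0.209 in vehicle, without overlap between the groups. The short Stxbp6 model, of 3 exons and 359 bases, showed the same order at lower depth. It had 57.5 and 32.0 normalized reads in fluoxetine and 104 and 97.4 in vehicle (log2 fold change -1.17, SE 0.51), and took 0.215 and 0.173 of the reads of the 6-exon model in fluoxetine against 0.229 and 0.228 in vehicle. With 36 to 97 reads per sample, its counting errors were 10.2 to 16.7%, wider than the distance between 0.215 and 0.228.

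For Negr1, the 7-exon model of 1047 bases and the 4-exon model of 533 bases had log2 fold changes of -0.95 and -0.94. Their share of reads relative to the 1808-base model overlapped between the groups, at 0.630 and 0.755 in fluoxetine against 0.738 and 0.718 in vehicle for the former, and 0.330 and 0.440 against 0.379 and 0.422 for the latter. The 4-exon model differed less between the fluoxetine samples than the longest one did, with 97.1 and 94.3 normalized reads in fluoxetine and 177 and 192 in vehicle.

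**Figure D3:**
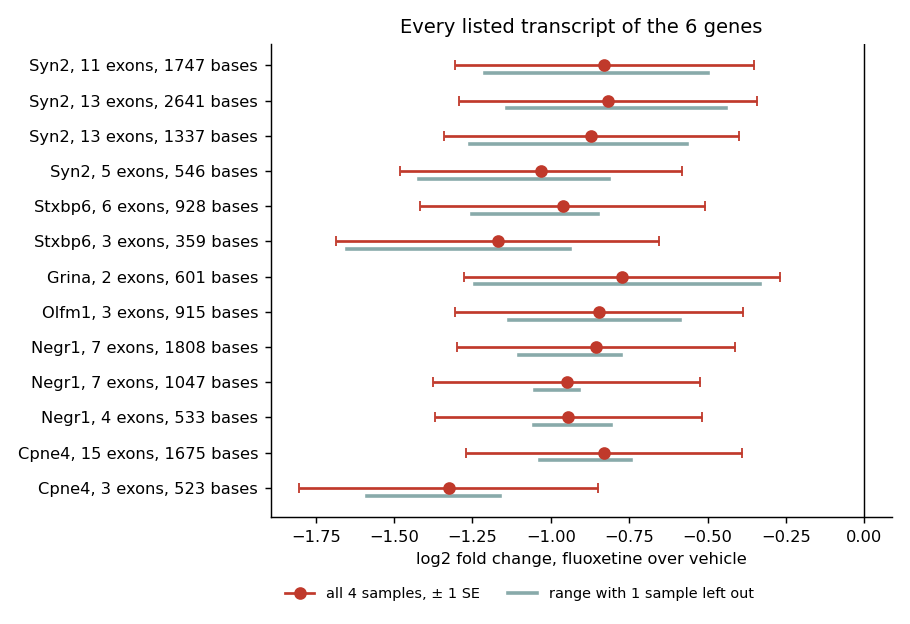
Log2 fold change, fluoxetine over vehicle, of the 13 listed transcripts of the 6 genes, with red points and bars for the value ± 1 SE over all 4 samples and blue-grey lines for the range with 1 sample left out. All points lie below 0, from -0.77 for Grina to -1.33 for the 3-exon Cpne4 model, and the SE bars of all transcripts overlap.

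**Figure D4:**
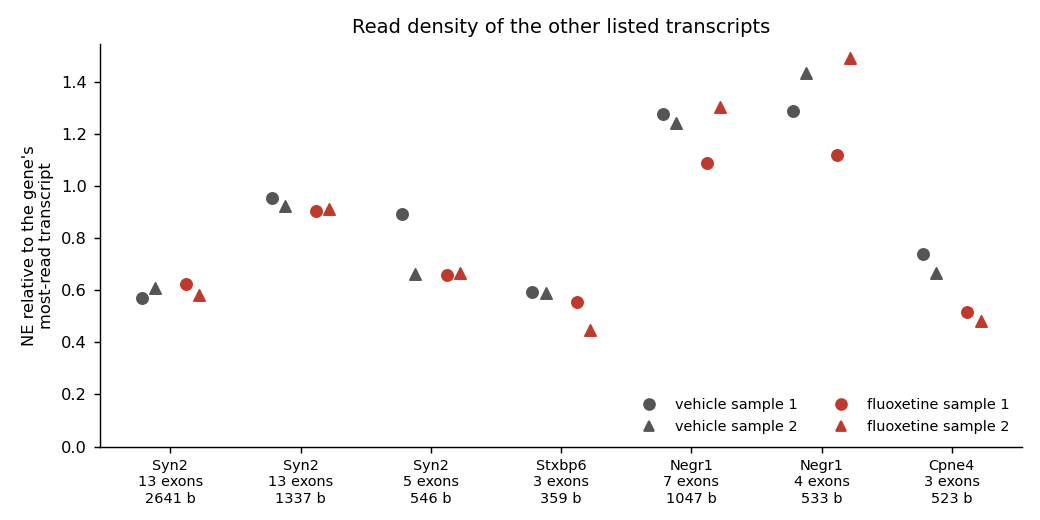
Read density (NE) of each further listed transcript relative to the most-read transcript of its gene, in the 4 samples, with circles for sample 1, triangles for sample 2, grey for vehicle and red for fluoxetine. The grey and red points are separate for the 3-exon models of Cpne4 and Stxbp6 and narrowly for the 1337-base Syn2 model, and overlap for the 2641-base Syn2 model and both Negr1 models, while vehicle sample 1 stands alone for the 5-exon Syn2 model.

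Other genes with the roles of these 6 were few in the table. Of 71 genes of synaptic vesicles and exocytosis, 5 are listed, and besides Syn2 and Stxbp6 these are Cplx3, Atp6v1c1 and Sytl4. Cplx3, a complexin that binds assembled SNARE proteins, had 55.5 and 174 normalized reads in fluoxetine and 33.2 and 105 in vehicle. Atp6v1c1, a subunit of the proton pump that acidifies vesicles, had 424 and 94.3 in fluoxetine and 219 and 125 in vehicle. For both genes the groups overlapped, as they did for Sytl4, a synaptotagmin-like protein with at most 11.8 normalized reads in any sample. No transcript of the table passed an adjusted p of 0.05 with edgeR's quasi-likelihood test and Benjamini-Hochberg adjustment (0 of 830). At an unadjusted p under 0.05, edgeR called 147 lower (17.7%) and 49 higher, and DESeq2 called 10 lower and 0 higher, also with 0 after adjustment. The edgeR split depended on the scaling and on single samples, with 74 lower and 60 higher at the library totals, and 93 and 49 at the DESeq2 size factors. Leaving out fluoxetine sample 1 gave 93 lower and 17 higher, and leaving out the other fluoxetine sample gave 67 and 38. Leaving out vehicle sample 1 gave 81 and 68, and leaving out the other vehicle sample gave 37 and 28. Of Cplx3, Atp6v1c1 and Sytl4, edgeR called none at an unadjusted p under 0.05.

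Of 92 genes of neuronal adhesion and axon guidance, 11 are listed, 8 lower and 3 higher in fluoxetine-exposed rats, while 48% of the 830 transcripts were lower. At TMM scaling both fluoxetine samples lay below both vehicle samples in the 8 and above both in the 3, as in 41.1% and 30.6% of the 830 transcripts. Besides Negr1, edgeR called 2 of 10 genes at an unadjusted p under 0.05, both lower, against 17.7% of the 830 transcripts. Nothing is read from these calls, since genes are set beside transcripts and all were selected on this contrast. The lower genes besides Negr1 were Unc5d, a netrin receptor, Fstl4, a follistatin-like protein, Astn1, which guides neurons along glia, Odz2, a teneurin, Cdh4, a cadherin, and the ephrins Efna4 and Efna5. Unc5d was the nearest to Negr1 in level, with 273 and 140 normalized reads in fluoxetine and 390 and 347 in vehicle. Fstl4 had 133 and 54.2 in fluoxetine and 189 and 167 in vehicle. As for Negr1, both were lowest in fluoxetine sample 2. Astn1 had 12.9 and 45.3 normalized reads in fluoxetine and 68.6 and 97.4 in vehicle, and Odz2 had 21.8 and 13.3 against 41.8 and 45.5. Efna4, Efna5 and Cdh4 had 19.3 normalized reads or fewer in every sample. For Efna5 the nearest samples had 1.98 in fluoxetine and 2.14 in vehicle, so that its lack of overlap rested on the scaling. The higher genes were the protocadherins Pcdh10 and Pcdh12 and the ephrin receptor Ephb6. Ephb6 had 173 and 149 normalized reads in fluoxetine and 97.5 and 108 in vehicle, and Pcdh10 had 81.3 and 106 against 70.7 and 43.4. Pcdh12 had 15.9 and 31.1 in fluoxetine and 7.50 and 12.7 in vehicle. The median log2 fold change over the 11 genes was -0.93. Each had been selected for a difference on this contrast, in either direction, so nothing is read from this median.

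**Figure D5:**
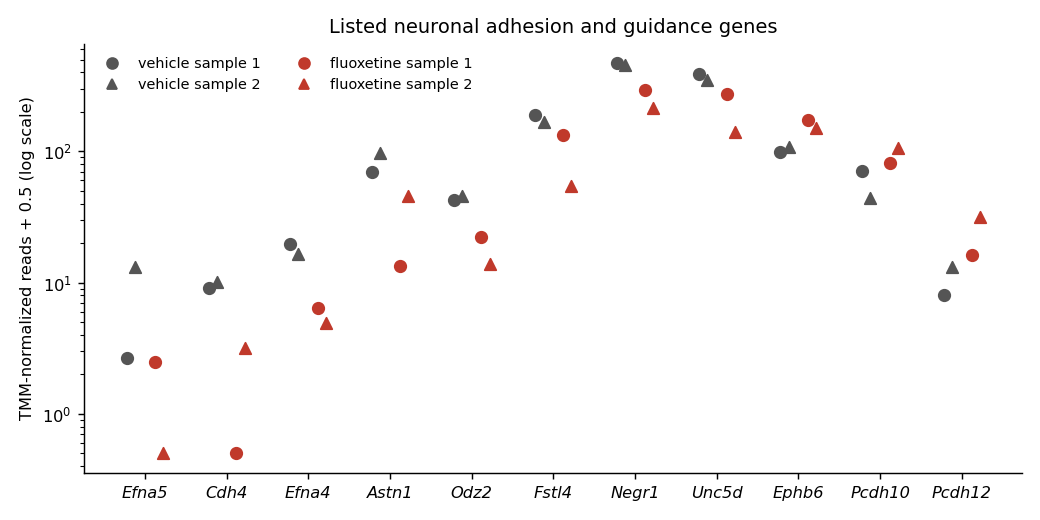
TMM-normalized reads plus 0.5 of the 11 listed genes of neuronal adhesion and guidance in the 4 samples (log scale), ordered by log2 fold change from left to right, with circles for sample 1, triangles for sample 2, grey for vehicle and red for fluoxetine. Negr1 has the highest reads of the 11, 8 genes have both red points below both grey points, and Ephb6, Pcdh10 and Pcdh12 have them above.

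Of 27 genes with copine or other C2 domains, 5 are listed and all were lower in fluoxetine, as were 48% of the 830 transcripts. Besides Cpne4, edgeR called 2 of 4 genes as lower at an unadjusted p under 0.05, Rasa4 and Mctp2, against 17.7% of the 830 transcripts. Genes are here set beside transcripts, all selected on this contrast, so nothing is read from these calls. Prkcd, a protein kinase C that was not called, had 157 and 77.4 normalized reads in fluoxetine against 230 and 292 in vehicle. Rasa4, a calcium-responsive inhibitor of Ras, had 22.8 and 16.9 against 51.4 and 48.7. In both Prkcd and Rasa4 the groups did not overlap. Mctp2, a C2 domain protein of membranes, and Sytl4 had 15.9 normalized reads or fewer in each sample. Olfm1 was the only listed gene of 13 with an olfactomedin domain, and Grina the only one of 6 in the TMBIM family. Of 25 glutamate receptor genes, 2 are listed, both of the metabotropic kind. Grm6 was lower, with 0.991 and 0 normalized reads in fluoxetine and 6.43 and 8.47 in vehicle. Grm8 was higher, with 20.8 and 24.0 in fluoxetine and 8.57 and 10.6 in vehicle.

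The genes whose profile over the 4 samples came closest to the mean profile of the 6 were sought among 222 other genes with at least 20 normalized reads. Likeness was the root mean square distance between mean-centred log2 normalized reads, whose median over the 222 genes was 0.84. The 5 nearest were RGD1564641 and Smad3 at 0.11 each, Dph1/Ovca2 and RGD1561955 at 0.15 each, and Sox13 at 0.18. Smad3, which carries signals of TGF-beta receptors, had 103 and 122 normalized reads in fluoxetine and 197 and 246 in vehicle. Sox13, a transcription factor, had 24.8 and 25.8 in fluoxetine and 55.7 and 62.5 in vehicle. Of the 6 genes themselves, Olfm1 lay nearest to their mean at 0.12 and Grina farthest at 0.26. The likeness rests on 4 samples. The genes compared were themselves selected on this contrast and include those listed as higher, so nothing is read from distances below the median.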

How the data were processed

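RNA-seq of 4 rat hippocampal samples was analysed, 2 per treatment, with groups and numbers taken from the sample labels. The authors sequenced single reads of 36 bp, aligned them to rn4 allowing 1 mismatch, used those with a single genomic position and counted them per transcript with Genomatix software. The deposited counts are reads in the exons of each transcript, without normalization, and a read can count for several transcripts. The use of strand in counting was not given in the sources consulted. The deposited NE is a signal, the read density that the authors obtained by dividing by transcript length and by library size, and the library totals were recovered from it. The table deposited by the authors is restricted to transcripts with a p-value under 0.05 and at least a 1.5 fold change in their test. Its fold changes and p-values hold the authors' own comparison and were not used.

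Reads were normalized by TMM, and log2 fold changes, SE and p-values were fitted over all 830 transcripts with edgeR 4.0.16 (glmQLFit and glmQLFTest, treatment as the only term, no filter, Benjamini-Hochberg adjustment) in R 4.3.3. DESeq2 1.42.0 was an alternative. Tallies used Python 3.11.15 with pandas 2.3.3 and numpy 2.4.6, and plots used matplotlib 3.10.9. The fits were tested on simulated data with less spread between replicates than these, and for median log2 fold changes only, so SE and p-values were not tested. A gene with several listed transcripts stands at the one with the most reads. Named genes were the 6 genes, other listed members of 6 gene lists and the 5 genes nearest in profile, with genes of the cell type marker lists where their values stand beside a result. One marker list is not reported here. The 6 genes and all lists were chosen with earlier results of these data known. Alternatives were other scalings, a filter at a mean of 10 reads, merged or other transcripts, a replicate block and leaving out each sample. With 2 samples per group, each of different pooled rats, the spread is poorly estimated. Reads carry no molecular identifiers, so counting errors (the square root of a read count) cover counting alone.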

Additional observations from a re-analysis of the deposited data

How the results depend on the processing

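The median log2 fold change over the 6 genes (-0.84) ranged from -0.71 to -0.99 over the alternatives. No gene changed direction under any of them, which the choice of the genes by this contrast made likely beforehand. In 9 of 72 values for a single gene, the change exceeded the spread between replicates, 8 of them with 1 sample left out and the other for Cpne4 at its least-read transcript (-1.33). The groups of Grina overlapped at the DESeq2 size factors, the library totals, the filter, the deposited NE and without vehicle sample 2, so that 5 of the 6 genes were without overlap there, and 6 elsewhere. The median over all 830 transcripts (0.49) was 0.61 at the library totals and ranged from -0.55 to 0.31 with 1 sample left out. In pairing by number, the deviations of fluoxetine 1 and vehicle 1 had a correlation of 0.64 over 406 transcripts, but with 2 pairs and no label behind the numbers the samples share only a number. With a replicate block the median over the 6 genes was -0.84. Over all transcripts edgeR called 168 lower and 63 higher at an unadjusted p under 0.05 with the block, against 147 and 49 without it. For the 13 transcripts of the 6 genes these counts were 11 with the block and 1 without it, from which nothing is read, since the genes were chosen by this contrast. Depth limits the short models of Cpne4 and Stxbp6 most.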
